A study of Mus musculus with 9 samples.

Results

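The genes of apoptotic cell uptake and scavenger receptors were followed in the 3 dendritic cell (DC) subsets of the mouse spleen. The group comprised 10 of the 39179 genes in the deposited count table, and its members were matched by gene symbol. These were the TAM receptor genes Axl, Mertk and Tyro3, the TIM genes Havcr2 (encoding TIM-3) and Timd4, the scavenger and lipoprotein receptor genes Cd36, Msr1, Cd163 and Lrp1, and Mfge8, which encodes a secreted bridging protein. DC were isolated from the spleens of unstimulated C57BL/6J mice, and no group carried a mutation or received a treatment. The CD8+ conventional DC (cDC1) were sorted as CD11c-high, CD317-low, CD8+ and CD11b- cells, and the CD8- conventional DC (cDC2) as CD11c-high, CD317-low, CD8- and CD11b+ cells. Plasmacytoid DC (pDC) were CD11c-intermediate, CD317-high and CD11b-. Each subset was sequenced in 3 libraries, each from 1 pool of 15 to 17 mice, so that differences were tested against the spread between pools and not between single animals. Libraries of the same replicate number share a date code across the subsets, and the main fit had subset as its only term.

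Cells that die by apoptosis expose phosphatidylserine on their surface, and phagocytes take them up through receptors that bind this lipid either directly or through a bridging protein. Several TIM proteins and the stabilins bind it directly, whereas the TAM receptor kinases use Gas6 and protein S. The integrin chains alphav, beta3 and beta5 use the product of Mfge8. Scavenger receptors take up modified lipoproteins, dying cells and haemoglobin complexes, and among splenic DC the cDC1 are known for taking up dead cells and presenting their antigens to CD8+ T cells.

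The libraries held between 15806597 and 32453789 counts on genes, and the replicates of each subset differed beyond counting noise. Levels are given in CPM, a count scaled to its library's total with edgeR's TMM factors, and a gene was called when its adjusted p was under 0.05. A floor of 3 counts corresponded to 0.0924 to 0.190 CPM before TMM scaling, covering counting error only. Marker genes followed the labels. All 7 pDC genes were higher in pDC than in either conventional subset, all 7 cDC2 genes were above their cDC1 level in cDC2, and 7 of 8 cDC1 genes were lower in cDC2 than in cDC1. The cDC1 gene Irf8 and the cDC2 genes Cd4 and Clec10a were highest in pDC, and Cd8a, Itgam and Bst2 encode proteins of the sort gate.

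Havcr2 and Cd36 were the most abundant members in cDC1, and both were called lower in cDC2 and in pDC. Msr1, Lrp1, Axl and Cd163 were called higher in cDC2 than in cDC1, while Mertk, Timd4 and Mfge8 passed in no comparison. Tyro3, the third TAM receptor gene, had between 0 and 3 counts in every library and was too low to test, so 9 of the 10 members were tested. Between cDC2 and cDC1, 6 of the 9 were called, 4 higher and 2 lower in cDC2. Of all 13819 genes tested, 24.4% were called in this comparison, 12.7% as higher and 11.7% as lower. Between pDC and cDC1, 4 members were called, 2 higher (Cd163 and Lrp1) and 2 lower (Havcr2 and Cd36), against a background of 48.6% of all genes, 24.3% higher and 24.4% lower. Between pDC and cDC2, 3 members were called, all lower in pDC (Havcr2, Msr1 and Lrp1), against 45.8% of all genes, 22.5% higher and 23.3% lower. For both pDC comparisons the share of members called was near or under the background. In the test of any difference among the subsets, 56.0% of all genes were called. The median log2 fold change of the 9 members was 1.37 in cDC2 over cDC1, 0.62 in pDC over cDC1 and -0.90 in pDC over cDC2, beside 0.03, 0.02 and -0.01 over all tested genes. The 3 comparisons share libraries and are not independent of each other. In bulk libraries, fewer cells expressing a gene and less of its RNA per cell cannot be told apart.

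**Figure D1:**
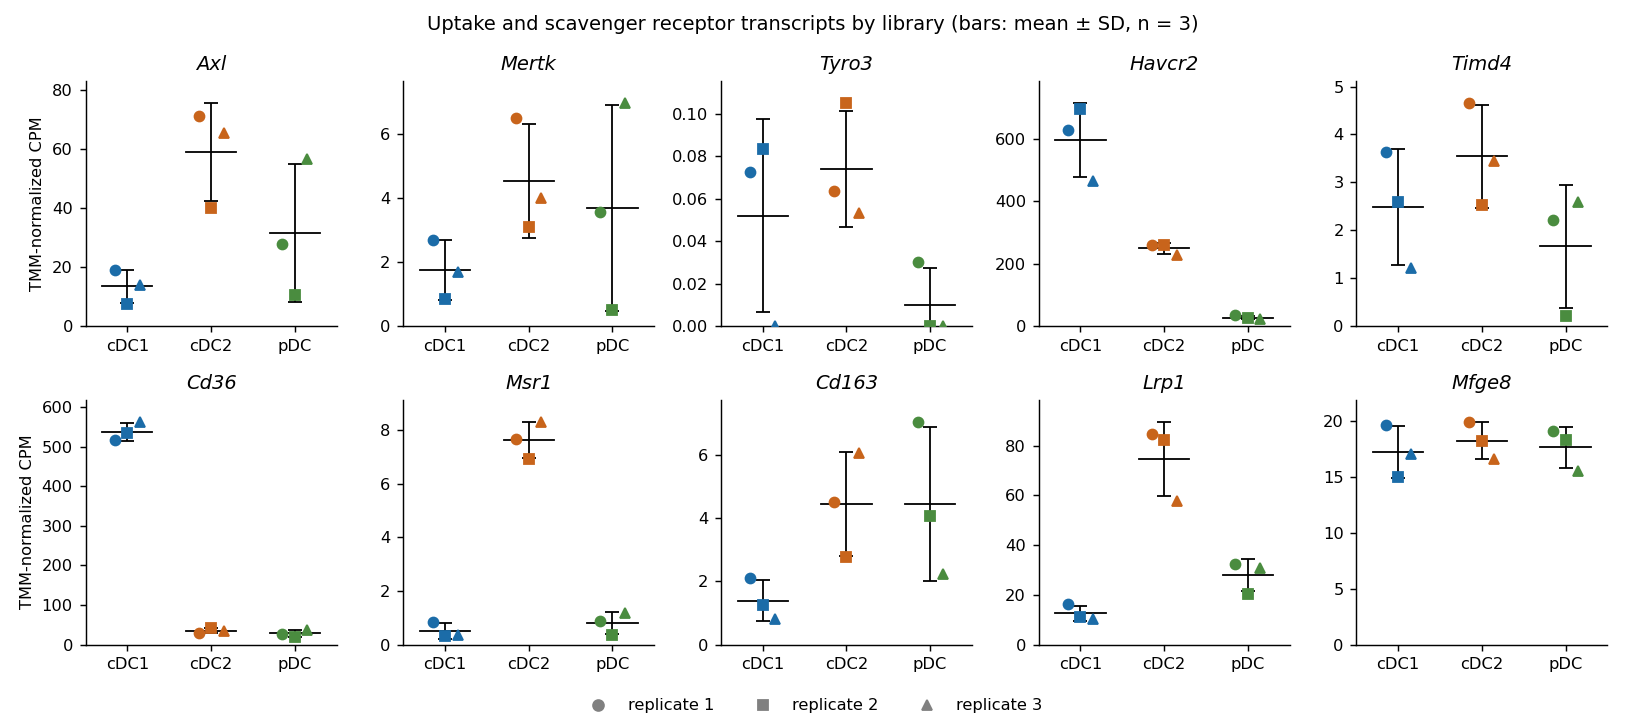
Level of each of the 10 members in the 9 libraries (y axis: TMM-normalized CPM, linear, with its own range for each gene; x axis: subset; circles, squares and triangles: replicates 1, 2 and 3; black bars: mean ± SD, n = 3). Havcr2 stepped down from cDC1 to cDC2 to pDC, Cd36 was high in the 3 cDC1 libraries alone, Msr1 in the 3 cDC2 libraries alone, and Mfge8 lay between 15.0 and 19.9 CPM in all 9 libraries.

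The promoters of 4 members that differed between subsets are given here, and their likeness to each other was not measured. The 250 bases before the start of each gene are printed 5′ to 3′ on the gene's strand, from RefSeq on GRCm38.p6, which held an entry for 9 of the 10 members, and capitals mark matches to the motifs searched. Havcr2 is on the plus strand (chr11:46454681-46454930), Cd36 on the minus strand (chr5:17835897-17836146, inside the annotated span of the gene), Axl on the minus strand (chr7:25788734-25788983) and Lrp1 on the minus strand (chr10:127621149-127621398).
Havcr2: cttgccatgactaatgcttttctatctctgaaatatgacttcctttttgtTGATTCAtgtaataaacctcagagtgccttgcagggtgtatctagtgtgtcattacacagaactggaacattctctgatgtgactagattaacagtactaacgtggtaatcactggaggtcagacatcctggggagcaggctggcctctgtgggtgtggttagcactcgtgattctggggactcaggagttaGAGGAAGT
Cd36: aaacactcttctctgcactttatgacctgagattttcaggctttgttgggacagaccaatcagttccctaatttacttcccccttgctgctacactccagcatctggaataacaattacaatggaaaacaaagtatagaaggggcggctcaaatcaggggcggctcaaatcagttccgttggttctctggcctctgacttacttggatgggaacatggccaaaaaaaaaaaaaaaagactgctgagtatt
Axl: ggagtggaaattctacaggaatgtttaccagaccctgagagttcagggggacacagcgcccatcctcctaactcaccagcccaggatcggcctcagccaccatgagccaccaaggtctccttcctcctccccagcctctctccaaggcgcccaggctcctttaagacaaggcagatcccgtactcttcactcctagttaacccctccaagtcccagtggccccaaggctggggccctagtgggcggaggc
Lrp1: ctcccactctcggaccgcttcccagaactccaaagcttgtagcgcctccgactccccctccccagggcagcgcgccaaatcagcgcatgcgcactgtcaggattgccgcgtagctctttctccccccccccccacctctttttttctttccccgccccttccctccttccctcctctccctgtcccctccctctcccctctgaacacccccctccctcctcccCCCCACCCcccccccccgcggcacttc
On both strands, 7 motifs were searched: an ISRE-like motif (GAAA, then NN, then GAAA), an ETS-IRF composite (GGAA, then NN, then GAAA), the AP-1 motif TGANTCA, the purine-rich ETS core GAGGAAGT, the E-box CAGGTG, the CACCC box CCCCACCC and the TATA box TATAAA. Havcr2 held an AP-1 match beginning at position -200 and an ETS core match at -8, counted from the base before the start as -1, and Lrp1 held a CACCC box at -27. The windows of Cd36 and Axl held no match, and the only other match among the members was an ETS-IRF composite at -72 of Timd4. None of these matches overlapped another. Of 27025 RefSeq promoters, 6.87% held the AP-1 motif, 2.44% the ETS core, 8.96% the CACCC box and 2.38% the ETS-IRF composite. The ISRE-like motif was held by 3.04%, the E-box by 17.1% and the TATA box by 13%. These matches describe the letters of the window and nothing was measured on binding.

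Havcr2 encodes TIM-3, a receptor that binds phosphatidylserine and galectin-9 and restrains T cell and DC activation. The gene (ENSMUSG00000020399) lies on the plus strand of GRCm38 at chr11:46454935-46481255, with 7 exons in its principal transcript. In cDC1 it measured 629, 696 and 467 CPM in replicates 1, 2 and 3, in cDC2 259, 262 and 229, and in pDC 33.9, 24.3 and 23.6. Every cDC1 library was above every cDC2 library, and every cDC2 library above every pDC library. The level in pDC was 21.9-fold under that of cDC1 (log2 fold change -4.45, SE 0.20, adjusted p = 1.56e-07) and 9.15-fold under that of cDC2 (log2 fold change -3.19, SE 0.19, adjusted p = 8.75e-07). The step between the conventional subsets was smaller, with cDC2 2.39-fold under cDC1 (log2 fold change -1.26, SE 0.18, adjusted p = 0.000675). Leaving out any single library, or all of replicate 3, kept the 3 calls. On a scale per kb of exon, Havcr2 was the most abundant member in cDC1, at 219.5 CPM per kb against 150.0 for Cd36, and in cDC2, at 91.8 against 11.7 for Axl.

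Timd4 encodes TIM-4, a phosphatidylserine receptor known from resident macrophages, and lies close to Havcr2 on the same chromosome (ENSMUSG00000055546, plus strand, chr11:46810800-46844332). It measured 3.64, 2.58 and 1.22 CPM in cDC1, 4.65, 2.52 and 3.45 in cDC2 and 2.21, 0.203 and 2.59 in pDC, from 4 to 146 counts a library. The 3 groups overlapped, with pDC replicate 2 the lowest library. No difference passed. The log2 fold change was 0.50 (SE 0.71, adjusted p = 0.685) for cDC2 against cDC1, -0.58 (SE 0.72, adjusted p = 0.54) for pDC against cDC1 and -1.08 (95% interval -2.69 to 0.53, adjusted p = 0.255) for pDC against cDC2.

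The other TIM genes of the mouse, Havcr1 (TIM-1) and Timd2 (TIM-2), were not members and were highest in pDC. Havcr1, another phosphatidylserine receptor, measured 397, 382 and 368 CPM in pDC, 2.40, 1.46 and 2.03 in cDC1 and 1.88, 0.665 and 0.691 in cDC2. The pDC libraries stood apart from all 6 conventional DC libraries, at log2 fold changes of 7.60 (SE 0.36, adjusted p = 2.01e-07) against cDC1 and 8.41 (SE 0.38, adjusted p = 1.72e-07) against cDC2. Timd2 measured 9.35, 8.97 and 9.07 CPM in pDC and at most 0.584 CPM in any conventional DC library. Thus Havcr1 and Havcr2 were opposite in the place of pDC, which was highest for the former and lowest for the latter. For both genes the mean of cDC1 was above that of cDC2, a difference that was not called for Havcr1.

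**Figure D2:**
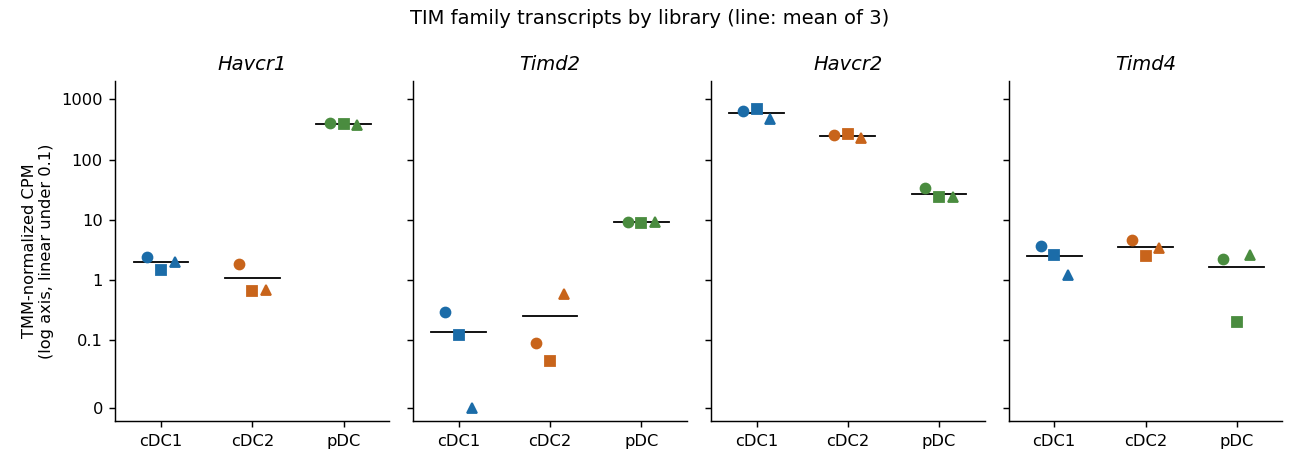
Levels of the 4 TIM genes in the 9 libraries (y axis: TMM-normalized CPM on a log axis that is linear under 0.1; x axis: subset; circles, squares and triangles: replicates 1, 2 and 3; line: mean of 3). Havcr1 and Timd2 were high in the 3 pDC libraries, Havcr2 was lowest in them, and Timd4 stayed under 5 CPM in every library with overlapping subsets.

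Cd36 encodes a class B scavenger receptor for oxidized lipoproteins, long-chain fatty acids and thrombospondin. The gene (ENSMUSG00000002944) is on the minus strand at chr5:17781690-17888801. It measured 518, 534 and 563 CPM in cDC1, 29.5, 43.0 and 32.9 in cDC2 and 27.7, 19.4 and 37.2 in pDC. The cDC1 libraries were far above all others, and those of cDC2 and pDC overlapped. Cd36 was 15.3-fold lower in cDC2 (log2 fold change -3.94, SE 0.24, adjusted p = 5.21e-06) and 19.2-fold lower in pDC (log2 fold change -4.26, SE 0.25, adjusted p = 6.62e-07) than in cDC1. Between the conventional subsets, 1.54% of tested genes had a larger absolute log2 fold change. For pDC against cDC2 the log2 fold change was -0.33 (95% interval -0.82 to 0.16, adjusted p = 0.259). This difference passed without pDC replicate 3 (log2 fold change -0.57, adjusted p = 0.038) and without all of replicate 3 (-0.61, adjusted p = 0.0464).

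Msr1 encodes the class A scavenger receptor for modified lipoproteins and lies on the minus strand at chr8:39581685-39642673 (ENSMUSG00000025044). It measured 7.68, 6.93 and 8.29 CPM in cDC2, 0.838, 0.334 and 0.339 in cDC1 and 0.877, 0.355 and 1.18 in pDC, from 5 to 241 counts a library. All 3 cDC2 libraries were above all others, and cDC1 and pDC overlapped. The level in cDC2 was 14.6-fold that in cDC1 (log2 fold change 3.87, SE 0.52, adjusted p = 0.000445), and pDC were 9.47-fold under cDC2 (log2 fold change -3.24, SE 0.50, adjusted p = 0.000461). Between pDC and cDC1 the log2 fold change was 0.62 (95% interval -0.53 to 1.78, adjusted p = 0.35). Msr1 and Cd36, both receptors for modified lipoproteins, thus had different highest subsets, cDC2 for the first and cDC1 for the second.

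Lrp1, a large endocytic receptor of the LDL receptor family that binds alpha-2-macroglobulin and calreticulin among many ligands, is on the minus strand at chr10:127538161-127621148 (ENSMUSG00000040249) and has 89 exons. Its level was 84.5, 82.1 and 57.7 CPM in cDC2, 32.3, 20.5 and 30.7 in pDC and 16.1, 11.0 and 10.3 in cDC1. The groups did not overlap, and the order was cDC2, pDC and cDC1. It was 5.97-fold higher in cDC2 than in cDC1 (log2 fold change 2.58, SE 0.25, adjusted p = 6.37e-05) and 2.22-fold higher in pDC than in cDC1 (log2 fold change 1.15, SE 0.24, adjusted p = 0.00298). In pDC it was 2.69-fold lower than in cDC2 (log2 fold change -1.43, SE 0.24, adjusted p = 0.000804). Per kb of its 17.7 kb of exon, Lrp1 averaged 4.22 CPM in cDC2, under the 9.79 CPM per kb of Cd36 in the same subset.

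Cd163, the macrophage receptor for haemoglobin-haptoglobin complexes (ENSMUSG00000008845, plus strand, chr6:124304656-124330527), measured 2.11, 1.25 and 0.812 CPM in cDC1, 4.52, 2.76 and 6.06 in cDC2 and 7.05, 4.05 and 2.24 in pDC, from 12 to 233 counts a library. Each cDC2 and pDC library was above each cDC1 library, and cDC2 and pDC overlapped. The log2 fold change was 1.66 (SE 0.52, adjusted p = 0.024) for pDC against cDC1 and 1.64 (SE 0.52, adjusted p = 0.045) for cDC2 against cDC1, and 0.02 (95% interval -1.09 to 1.12, adjusted p = 0.983) for pDC against cDC2. Both calls hung on single libraries. The call for pDC was lost without cDC1 replicate 2 (adjusted p = 0.0765), without cDC1 replicate 3 (0.0837) and without pDC replicate 1 (0.11). The call for cDC2 was lost in 6 of 10 fits that left out libraries, namely without cDC1 replicate 2 (adjusted p = 0.135) or 3 (0.144), cDC2 replicate 1 (0.107) or 3 (0.137), pDC replicate 2 (0.063) or all of replicate 3 (0.0857), and also with limma-voom (0.0987).

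Axl encodes a TAM receptor kinase that is activated by Gas6 bound to phosphatidylserine and dampens inflammatory signalling. The gene (ENSMUSG00000002602) is on the minus strand at chr7:25757273-25788705. Its level was 18.9, 7.59 and 13.9 CPM in cDC1, 71.2, 40.0 and 65.6 in cDC2 and 27.9, 10.4 and 56.6 in pDC. All cDC2 libraries were above all cDC1 libraries, the pDC libraries spanned both, and replicate 2 was the lowest in every subset. In cDC2, Axl was 4.37-fold higher than in cDC1 (log2 fold change 2.13, SE 0.55, adjusted p = 0.0187). This call was lost without cDC1 replicate 2 (log2 fold change 1.84, adjusted p = 0.0696), cDC1 replicate 3 (2.12, 0.0609), cDC2 replicate 1 (1.97, 0.061) or cDC2 replicate 3 (2.02, 0.0533). The ratio within the same date code was alike in the 3 replicates, at log2 values of 1.91, 2.40 and 2.24, and in the fit with a replicate block it was 2.17 (adjusted p = 0.000709).

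Whether the Axl differences of pDC were called depended on the pairing, while their direction did not. The log2 fold change was 1.23 (95% interval 0.01 to 2.44, adjusted p = 0.0889) for pDC against cDC1 and -0.90 (95% interval -2.09 to 0.28, adjusted p = 0.198) for pDC against cDC2, and neither was called. With the replicate block, both were called, pDC above cDC1 (1.07, adjusted p = 0.0174) and below cDC2 (-1.10, adjusted p = 0.0132). The estimates put pDC between the conventional subsets with and without the block. Within the same date code, pDC exceeded cDC1 in 3 of 3 pairs by log2 ratios of 0.56, 0.45 and 2.03, and lay under cDC2 in 3 of 3 pairs at -1.35, -1.95 and -0.21. Against cDC1 the difference also passed without pDC replicate 2 (1.62, adjusted p = 0.0125) and with DESeq2 (1.23, adjusted p = 0.0378), and against cDC2 without pDC replicate 3 (-1.61, adjusted p = 0.0241). The value against cDC1 was smaller without pDC replicate 3 (0.52, adjusted p = 0.389) and without all of replicate 3 (0.52, adjusted p = 0.468), and that against cDC2 without pDC replicate 2 (-0.49, adjusted p = 0.393).

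Mertk, the TAM receptor best known from tissue macrophages that clear apoptotic cells (ENSMUSG00000014361, plus strand, chr2:128698956-128802894), was low. It measured 2.70, 0.834 and 1.69 CPM in cDC1, 6.50, 3.08 and 3.99 in cDC2 and 3.57, 0.507 and 6.95 in pDC, from 10 to 204 counts a library. The cDC2 libraries were above those of cDC1 without overlap, pDC covered the whole range, and replicate 2 was again lowest in each subset. No difference was called, with log2 fold changes of 1.37 (95% interval -0.34 to 3.09, adjusted p = 0.244) for cDC2 against cDC1, 1.06 (-0.65 to 2.78, adjusted p = 0.283) for pDC against cDC1 and -0.31 (-1.97 to 1.35, adjusted p = 0.768) for pDC against cDC2. The value for pDC against cDC1 was 1.55 without pDC replicate 2 (adjusted p = 0.0477) and 0.26 without pDC replicate 3 (adjusted p = 0.79). In the fit without pDC replicate 2, which called Axl and Mertk, 6 members and 5982 genes differed between these subsets, against 4 and 6718 in all libraries. Tyro3 (ENSMUSG00000027298, plus strand, chr2:119797733-119818104), whose best known site is the nervous system, had a highest value of 3 counts, in 1 cDC2 library, so any difference was not detectable at this depth.

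Mfge8 encodes a secreted protein, also called lactadherin, that links phosphatidylserine to alphav integrins (ENSMUSG00000030605, minus strand, chr7:79133768-79149060). It measured 19.6, 15.0 and 17.1 CPM in cDC1, 19.9, 18.3 and 16.6 in cDC2 and 19.1, 18.3 and 15.6 in pDC. The 3 groups overlapped fully. The 95% intervals of the log2 fold change were -0.27 to 0.44 for cDC2 against cDC1 (adjusted p = 0.763), -0.32 to 0.39 for pDC against cDC1 (adjusted p = 0.865) and -0.40 to 0.30 for pDC against cDC2 (adjusted p = 0.83).

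**Figure D3:**
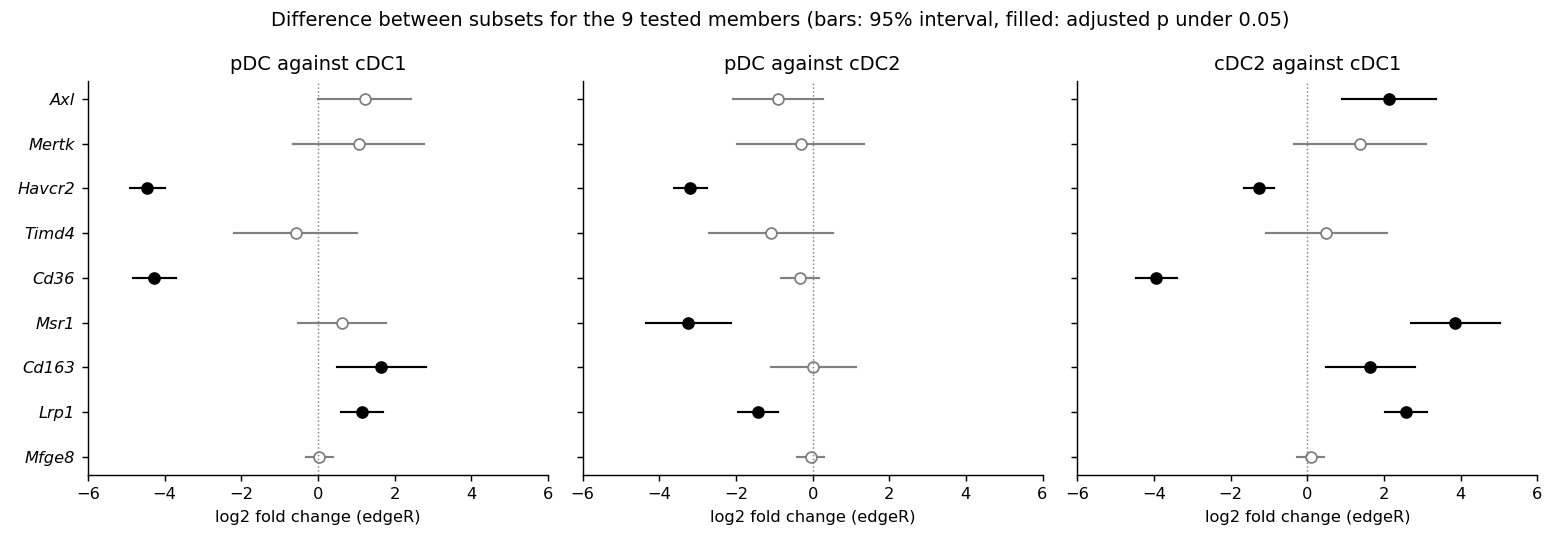
Log2 fold change of the 9 tested members in the 3 comparisons (x axis: log2 fold change from edgeR, positive where the first named subset was higher; points: estimate; bars: 95% interval; filled black: adjusted p under 0.05, open grey: not past it). Havcr2 and Cd36 lie left of 0 against cDC1 in both other subsets, Lrp1 differs in all 3 panels, and the intervals of Axl, Mertk, Timd4 and Cd163 are wider than those of Mfge8, which span from -0.40 to 0.44.

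The members differed widely in their spread between replicates. In pDC, the highest library exceeded the lowest by 13.7 times for Mertk, 12.8 times for Timd4 and 5.45 times for Axl, whereas the median over 12366 genes was 1.37. For Mertk this ratio was larger than that of 99.73% of genes, for Timd4 than that of 99.64% and for Axl than that of 96.96%. The lowest library, pDC replicate 2, held only 10 counts of Mertk and 4 of Timd4, against 205 of Axl. The genes compared were not matched for level, and low counts widen such ratios. Havcr2, Lrp1 and Mfge8 had ratios of 1.44, 1.58 and 1.23 in the same libraries.

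Markers of macrophages and monocytes moved with this spread. The list held 18 genes, none at 0, and in pDC all 18 were lowest in replicate 2, as were 17 in cDC2 and 16 in cDC1, beside 33.7%, 29.51% and 33.95% of all tested genes. C1qa, a complement subunit of splenic macrophages, measured 16.8, 4.05 and 25.0 CPM in the pDC libraries. Vcam1 measured 44.8, 8.05 and 48.1 CPM and Cd5l, a secreted macrophage protein, 15.8, 2.13 and 18.2 CPM in the same libraries. Of the 9 tested members, Axl, Mertk, Timd4, Cd36, Msr1 and Lrp1 were likewise lowest in pDC replicate 2, and Axl, Mertk and Msr1 were lowest in replicate 2 of every subset. Havcr2, Cd163 and Mfge8 were lowest in pDC replicate 3. The summed level of the list was 553 to 834 CPM in cDC1, 2097 to 2996 in cDC2 and 2347 to 3728 in pDC. Without the monocyte genes Ly6c2 and Ccr2, left out after their values were seen, it was 480 to 727 CPM in cDC1, 1964 to 2866 in cDC2 and 149 to 702 in pDC. In cDC2 against cDC1, 9 of the 18 were called higher (Emr1, Csf1r, Spic, Fcgr1, C1qa, C1qb, C1qc, Ccr2 and Lyz2) and none lower. Apart from Emr1 and Csf1r, these calls were each lost in some fit that left out libraries. The other 9 were not called. Among them, Vcam1 averaged 72.6 CPM in cDC1 and 67.9 in cDC2, Hmox1 73.3 and 58.5, and Ly6c2 25.2 and 22.5. Lyz2 alone averaged 1399 CPM in cDC2 and 329 in cDC1. Of all tested genes, 12.7% were called higher and 11.7% lower in this comparison. For all tested genes the shares higher and lower were 22.5% and 23.3% in pDC against cDC2, and 24.3% and 24.4% against cDC1. Of the 18, Emr1, Csf1r, Spic and Lyz2 were called lower and Ly6c2 and Ccr2 higher in pDC against cDC2. Against cDC1, Ly6c2 and Ccr2 were called, both higher in pDC. With the replicate block, which follows the pairing by date code, the calls were 12 higher in cDC2 than in cDC1, 2 higher and 9 lower in pDC than in cDC2, and 5 higher and 3 lower in pDC than in cDC1. Over all tested genes the calls rose too with the block, from 3370 to 4916 in cDC2 against cDC1. They rose from 6328 to 7663 in pDC against cDC2 and from 6718 to 8094 in pDC against cDC1. Sums of some other cell type markers also fell in replicate 2. Neutrophil markers summed to 32.1, 4.36 and 31.6 CPM in pDC replicates 1, 2 and 3. Neutrophil and erythroid sums were lowest in replicate 2 of every subset. NK cell sums were so in cDC1 and pDC, and B cell sums in cDC2 and pDC. T cell sums were lowest in replicate 1 of every subset. The part of macrophage RNA, or of RNA from these other cells, in the members' levels was not tested.

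**Figure D4:**
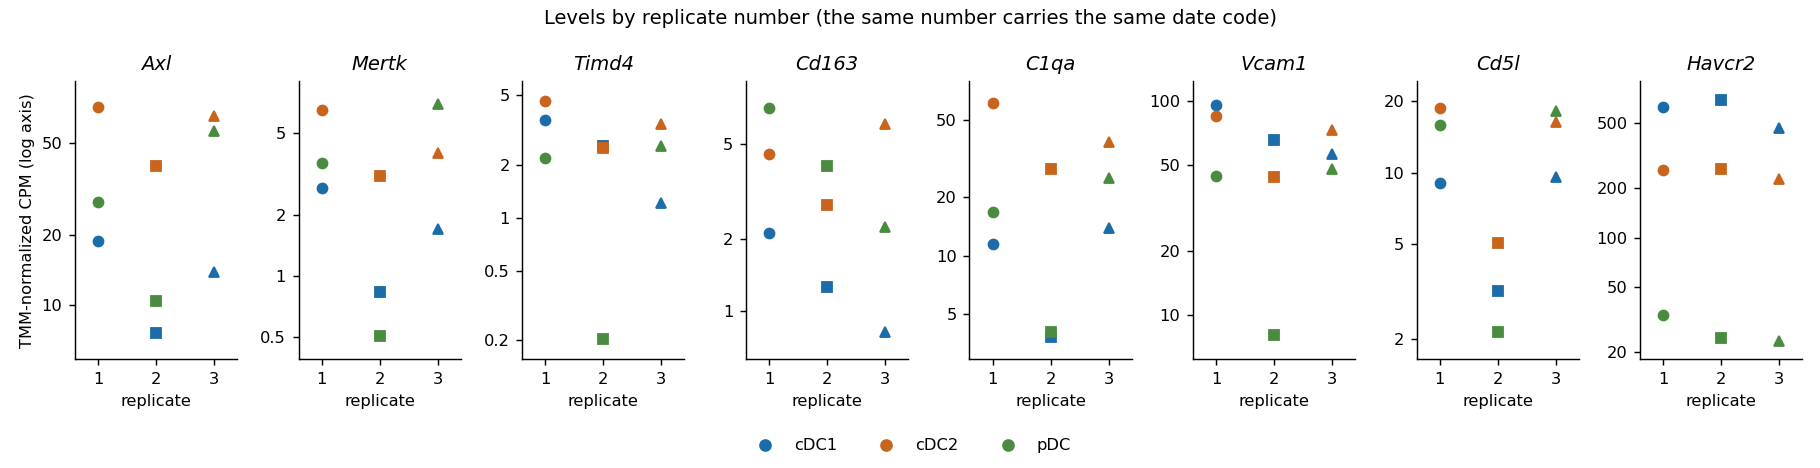
Levels by replicate number for 5 members and the macrophage genes C1qa, Vcam1 and Cd5l (y axis: TMM-normalized CPM, log axis, with its own range for each gene; x axis: replicate, same numbers share a date code; blue: cDC1; orange: cDC2; green: pDC). The green square of replicate 2 lies lowest of the pDC points for Axl, Mertk, Timd4, C1qa, Vcam1 and Cd5l, but not for Cd163 or Havcr2.

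The ligands that bridge to these receptors, and other opsonins, gave mixed changes. Of 11 genes, 10 were tested, and 4 were called higher and 2 lower in cDC2 than in cDC1, beside 12.7% and 11.7% of all tested genes. The shares of all tested genes were 24.3% higher and 24.4% lower in pDC than in cDC1, and 22.5% and 23.3% in pDC than in cDC2. Of the listed genes, pDC had 2 higher and 3 lower against cDC1, and 2 higher and 2 lower against cDC2. The latter were 2 and 5 with the replicate block, where the 3 C1q genes were added as lower in pDC. Over all tested genes, the calls in pDC against cDC2 rose from 6328 to 7663 with the block. The block also added C1qb (adjusted p = 0.0393) and C1qc (0.0197) as higher in pDC than in cDC1. Pros1, encoding the TAM ligand protein S, measured 17.3, 12.4 and 27.6 CPM in pDC, 4.37, 3.25 and 6.84 in cDC1 and 7.42, 6.54 and 10.3 in cDC2. The pDC libraries were above all others, with log2 fold changes of 2.00 (SE 0.37, adjusted p = 0.00134) against cDC1 and 1.24 (SE 0.35, adjusted p = 0.0161) against cDC2, the latter lost without cDC2 replicate 1 (0.0584) or 2 (0.0597). Between cDC2 and cDC1 the log2 fold change was 0.76 (adjusted p = 0.169), and 0.79 (adjusted p = 0.00661) with the replicate block. Gas6, the other TAM ligand, had between 0 and 16 counts a library. Anxa1, encoding annexin A1, an opsonin of apoptotic cells, averaged 187 ± 9.89 CPM (SD, n = 3) in cDC1, 106 ± 5.55 in cDC2 and 10.4 ± 4.44 in pDC, and was lower in pDC than in cDC1 (log2 fold change -4.17, SE 0.30, adjusted p = 2.47e-06) and cDC2 (-3.35, SE 0.29, adjusted p = 9.62e-06). Anxa5 was lower in pDC than in cDC1 (log2 fold change -0.74) and cDC2 (-0.73), and Cfp, encoding properdin, was higher in pDC than in cDC1 (1.09). The 3 C1q genes, which are also on the macrophage list, were higher in cDC2 than in cDC1, with log2 fold changes of 2.15 for C1qa, 2.49 for C1qb and 2.25 for C1qc. These calls were lost without cDC1 replicate 2 (adjusted p = 0.0991, 0.0558 and 0.0616) or cDC2 replicate 1 (0.119, 0.0519 and 0.0696), among others.

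Of 14 other genes listed with the receptors for phosphatidylserine or dead cells, among them the TIM gene Timd2, 12 were tested. In cDC2 against cDC1, 4 were called higher and 2 lower, in pDC against cDC1 6 and 2, and in pDC against cDC2 5 and 5. In the same order, 12.7% and 11.7%, 24.3% and 24.4%, and 22.5% and 23.3% of all tested genes were called. The chains of the receptors for the Mfge8 product did not share 1 pattern. Itgb3 (beta3) averaged 11.2 ± 2.05 CPM (SD, n = 3) in cDC1, 46.9 ± 3.78 in cDC2 and 147 ± 12.8 in pDC, and all 3 comparisons were called, with log2 fold changes of 2.07 for cDC2 over cDC1, 3.72 for pDC over cDC1 and 1.65 for pDC over cDC2. Itgav (alphav), its partner chain, had means of 34.7 ± 3.98 CPM in cDC1, of 40.8 ± 3.11 in cDC2 and of 11.7 ± 1.89 in pDC, and was lower in pDC than in cDC1 (log2 fold change -1.57, adjusted p = 2.13e-05) and cDC2 (-1.80, adjusted p = 9.72e-06). The subset with the most Itgb3 thus had the least Itgav. Itgb5 (beta5) averaged 4.14 ± 1.77, 9.35 ± 2.18 and 3.43 ± 1.35 CPM in cDC1, cDC2 and pDC and passed for pDC against cDC2 (log2 fold change -1.44, adjusted p = 0.0184), a call lost without cDC2 replicate 1 (0.0648) or pDC replicate 2 (0.0523). For cDC2 against cDC1 it was 1.18 (adjusted p = 0.0687), and 1.26 (adjusted p = 0.00329) with the replicate block.

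Clec9a, the receptor for exposed actin of dead cells that marks cDC1, averaged 624 ± 24.2 CPM (SD, n = 3) in cDC1, 50.1 ± 8.93 in cDC2 and 251 ± 11.0 in pDC. All 3 comparisons were called, with cDC2 below cDC1 (log2 fold change -3.64, SE 0.14), pDC below cDC1 (-1.31, SE 0.13) and pDC above cDC2 (2.33, SE 0.13). Havcr2 was also highest in cDC1 but lowest in pDC, whereas Clec9a was lowest in cDC2. The CD300 genes Cd300lb and Cd300lf, which encode myeloid receptors for lipids of dying cells, were higher in cDC2 than in cDC1 by log2 fold changes of 3.93 (SE 0.48, adjusted p = 0.000264) and 3.08 (SE 0.19, adjusted p = 4.91e-06). Cd300lb averaged 2.08, 31.9 and 3.53 CPM in cDC1, cDC2 and pDC, the order of Msr1, while Cd300lf averaged 10.5, 88.8 and 114.5 CPM and was called in pDC over cDC2 with the replicate block (log2 fold change 0.37, adjusted p = 0.0398) but not without it (0.37, adjusted p = 0.105). Stab1, encoding stabilin-1, reached at most 34 counts in any library and was near the floor in pDC, where it was called lower than in cDC2 (log2 fold change -3.63).

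Among 22 other scavenger and lipoprotein receptors, 14 were tested, and 7 were called higher and 4 lower in pDC than in cDC1, 8 higher and 3 lower in pDC than in cDC2, and 4 higher and 2 lower in cDC2 than in cDC1, the last being 6 and 4 with the replicate block. The shares of all tested genes called higher and lower without the block were 24.3% and 24.4%, 22.5% and 23.3%, and 12.7% and 11.7%. Between cDC2 and cDC1, 3370 of all tested genes were called without the block and 4916 with it. Lrp8, an LDL receptor family member like Lrp1, averaged 6.44 ± 1.40 CPM (SD, n = 3) in cDC1, 26.6 ± 5.42 in cDC2 and 313 ± 63.4 in pDC. It was 48.3-fold higher in pDC than in cDC1 (log2 fold change 5.59, SE 0.25, adjusted p = 1.49e-07) and 11.8-fold higher than in cDC2 (3.56, SE 0.23, adjusted p = 1.27e-06), so that its highest subset was pDC and that of Lrp1 cDC2. Cxcl16, whose membrane form binds oxidized lipoproteins and phosphatidylserine, had means of 214 ± 25.1 CPM in cDC1, of 103 ± 17.8 in cDC2 and of 4.22 ± 3.36 in pDC, and was lower in pDC than in cDC1 (log2 fold change -5.68, SE 0.58, adjusted p = 2.58e-05) and cDC2 (-4.62, SE 0.55, adjusted p = 8.99e-05). From cDC1 to cDC2 its log2 fold change was -1.06 (adjusted p = 0.138), and -1.08 (adjusted p = 0.025) with the replicate block. Scarb1, in the same class B as Cd36, was also lower in cDC2 than in cDC1 (log2 fold change -1.11, SE 0.16, adjusted p = 0.000602), and Sorl1 was higher (1.37, SE 0.11, adjusted p = 2e-05). Scarf1 had 0 to 24 counts a library and was called lower in pDC than in cDC1 (log2 fold change -3.60) and cDC2 (-2.93). The call against cDC2 was lost when any single cDC1 or cDC2 library was left out. It was also lost without pDC replicate 2 or 3 and without all of replicate 3 (adjusted p between 0.0511 and 0.104 in these fits).

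Downstream of the receptors lies the engulfment machinery, which moves the actin skeleton around the cargo. Of 15 genes, 14 were tested, with 1 higher and 6 lower in pDC than in cDC1, 2 higher and 7 lower in pDC than in cDC2, and 6 higher and 1 lower in cDC2 than in cDC1. Over all genes tested, 24.3% were higher and 24.4% lower in pDC than in cDC1, and 22.5% higher and 23.3% lower in pDC than in cDC2. From cDC1 to cDC2, 12.7% of these genes were called as rising and 11.7% as falling. With the replicate block the list counts were 3 and 8, 3 and 8, and 8 and 2. In the same order, the block raised the calls over all genes tested from 6718 to 8094, 6328 to 7663 and 3370 to 4916. Elmo1 and Dock1 encode the partners that activate Rac during engulfment. Elmo1 averaged 169 ± 12.2 CPM (SD, n = 3) in cDC1, 332 ± 15.2 in cDC2 and 52.6 ± 9.21 in pDC, with log2 fold changes of -1.68 from cDC1 to pDC, -2.66 from cDC2 to pDC and 0.98 from cDC1 to cDC2, all called. Dock1 had the same order at lower levels, 3.94, 9.40 and 2.28 CPM, and its call for pDC against cDC1 (log2 fold change -0.81, adjusted p = 0.044) was lost without replicate 1 or 2 of any subset (adjusted p between 0.0659 and 0.161). Rac2, the Rac GTPase of blood cells, was instead highest in pDC, at 299 ± 48.4, 645 ± 53.5 and 1683 ± 259 CPM, and all 3 of its comparisons were called.

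Of 16 genes for receptor shedding, signalling and the handling of cargo lipid, all were tested, and 7 were called higher and 6 lower in pDC than in cDC1, 7 higher and 4 lower in pDC than in cDC2, and 6 higher and 5 lower in cDC2 than in cDC1. The shares of all tested genes called were 24.3% and 24.4%, 22.5% and 23.3%, and 12.7% and 11.7%. Npc1, which exports cholesterol from lysosomes, averaged 64.2 ± 3.23 CPM (SD, n = 3) in cDC1, 150.5 ± 2.88 in cDC2 and 585 ± 32.9 in pDC, with log2 fold changes of 3.19 (SE 0.09) over cDC1 and 1.96 (SE 0.09) over cDC2. Nr1h3, encoding the sterol sensor LXR-alpha, a regulator of Mertk in macrophages, was highest in cDC2 at 18.3 ± 3.28 CPM, against 3.00 ± 2.03 in cDC1 (log2 fold change 2.58, SE 0.50, adjusted p = 0.00432) and 4.30 ± 2.21 in pDC (-2.10, SE 0.49, adjusted p = 0.00609). Abca1, the cholesterol exporter, was higher in cDC2 than in cDC1 (log2 fold change 1.62, SE 0.42, adjusted p = 0.02), a call lost without cDC1 replicate 2 (0.0799) or 3 (0.0588) or cDC2 replicate 1 (0.0877) or 2 (0.0546), and Rxra, encoding the partner receptor of LXR, was lower (-1.59, SE 0.14, adjusted p = 3.02e-05). Pparg, a fatty acid sensor known to regulate Cd36, had means of 5.05 ± 0.279 CPM in cDC1, of 4.25 ± 1.97 in cDC2 and of 0.704 ± 0.727 in pDC, where it held 48, 13 and 0 counts. It was lower in pDC than in cDC1 (log2 fold change -2.74, SE 0.79, adjusted p = 0.0165) and in cDC2 (-2.49). The call against cDC2 was lost without cDC2 replicate 1 (adjusted p = 0.0543) or 3 (0.0799) or pDC replicate 2 (0.0688). Cd36 instead separated cDC1 from both other subsets. Socs3, an inhibitor of cytokine signalling, was higher in pDC than in cDC1 (log2 fold change 2.48, SE 0.58, adjusted p = 0.00575), and in cDC2 over cDC1 it measured 0.81 (adjusted p = 0.368), or 1.07 (adjusted p = 0.0388) with the replicate block.

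Of 5 genes for ligands and partners of TIM-3, 4 were called higher in pDC than in cDC1 and the same 4 higher than in cDC2 (Lgals9, Hmgb1, Ceacam1 and Fyn), and none was called lower, beside 24.3% and 22.5% of all tested genes called higher in these comparisons. The call of Hmgb1 against cDC2 (log2 fold change 0.58, adjusted p = 0.0469) was lost without replicate 1 or 2 of cDC1 (0.0571 and 0.0597) or of cDC2 (0.155 and 0.105), and without pDC replicate 3 (0.149). In cDC2 over cDC1 it was 0.37 (adjusted p = 0.254), and called with the replicate block (adjusted p = 0.00934). Ceacam1, a partner of TIM-3 at the cell surface, averaged 5.97 ± 0.51 CPM (SD, n = 3) in cDC1, 17.2 ± 0.60 in cDC2 and 169 ± 15.8 in pDC, a log2 fold change of 4.82 (SE 0.13, adjusted p = 2.76e-08) for pDC against cDC1. Fyn, a kinase that binds the TIM-3 tail, averaged 98.1 ± 0.945, 91.6 ± 6.87 and 960 ± 142 CPM (log2 fold change 3.29, SE 0.13, adjusted p = 6.42e-08, for pDC against cDC1). Lgals9, encoding galectin-9, averaged 34.6 ± 9.68, 70.6 ± 14.5 and 140 ± 28.5 CPM and was higher in cDC2 than in cDC1 (log2 fold change 1.03, SE 0.23, adjusted p = 0.00854) and in pDC than in cDC2 (0.99, SE 0.23, adjusted p = 0.0054). For Havcr2 and Lgals9, each of the 3 steps between subsets was called in opposite directions.

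Genes with the pattern most like each member were sought among 10205 genes with a mean of at least 5 CPM, by Pearson's r of log2 (CPM + 1) over the 9 libraries, which share 3 date codes and 3 subset means. For Havcr2 these were Trpm2 (r = 0.9969) and Wdfy4 (0.9965), which averaged 305 and 3573 CPM in cDC1, 86.2 and 1805 in cDC2, and 4.25 and 307 in pDC. Cd99l2 (0.9964) and Cst3 (0.9909) were most like Cd36, Clec4a3 (0.9977) and Ticam2 (0.9933) most like Msr1, and Vopp1 (0.9886) and Ptpro (0.9841) most like Lrp1. For the members that varied between replicates, C1qc (0.9673) and Kcnj10 (0.9670) were most like Axl, Kcnj10 (0.9663) and Tmem19 (0.9396) most like Mertk, Gm12112 (0.9208) and Apoe (0.9078) most like Timd4, and Ddx19a (0.9325) and Abcf3 (0.9225) most like Cd163. The highest values for Mfge8 were those of Cox16 (0.8527) and Lepre1 (0.8467). Among the members themselves, r was 0.925 for Axl and Mertk, 0.920 for Msr1 and Lrp1, 0.852 for Axl and Lrp1 and 0.754 for Havcr2 and Cd36, and the most negative was -0.821 for Cd36 and Cd163.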

How the data were processed

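RNA from cDC1, cDC2 and pDC of unstimulated mouse spleen (3 libraries each) was sequenced over 75 bases from one end after stranded library preparation from polyadenylated RNA. The authors deposited raw counts of reads for each of 39179 genes. The submitters' processing notes name STAR, SAMtools, featureCounts and MultiQC and the build mm10, and the annotation and strand setting of the counting are not given in the sources used here. Per the paper's methods, differential expression was run in Degust, without naming the test.

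Members were matched by symbol, and they and the gene lists were chosen with earlier results of these data known. None of the 10 members shared a 75-base exon window with another gene or overlapped another gene's exons in the GENCODE M21 annotation of GRCm38, which was used for positions and lengths. Counts were filtered (filterByExpr, minimum count 10, leaving 13819 genes), scaled by TMM and fitted in one quasi-likelihood model of edgeR 4.0.16 (R 4.3.3) over the 9 libraries, with subset as the only term. P-values were Benjamini-Hochberg adjusted over all genes tested, with a threshold of 0.05, and set each difference against the spread between these replicate pools. Standard errors and 95% intervals refer to the log2 fold change. Same-numbered libraries carry the same date code, and deviations from subset means correlated for all 9 same-numbered pairs (mean r 0.403, range 0.266 to 0.543), so the numbers pair the samples and the replicate block is given where it changes the call of a member or of a named list gene, or moves a list's count of calls by over 1.5 times. Replicates of a subset differed by a chi-square per degree of freedom of 10.6 to 67.7 and were counted separately.

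Alternatives were the replicate block, DESeq2 1.42.0, limma-voom (limma 3.58.1), other scaling factors, other filters, fits of the 6 libraries compared, and libraries left out. From each list and comparison, the 3 genes with the largest absolute log2 fold change past the threshold were named, and always Gas6, Pros1, Havcr1, Timd2, Clec9a, Itgav, Itgb3 and Itgb5. Per member, the 2 genes of most similar pattern were named. Figures were drawn with matplotlib 3.10.9 in Python 3.11.15. Markers of B, T, NK, neutrophil and erythroid cells were also summed: their totals were 56.4 to 99.6, 3.39 to 19.9, 8.21 to 78.1, 4.36 to 43.7 and 35.7 to 66.8 CPM over the 9 libraries.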

Additional observations from a re-analysis of the deposited data

How the results depend on the processing

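Each value was recomputed under 19 alternatives, 10 of which left out libraries. The Havcr2, Lrp1 and Msr1 differences kept their direction and call, or lack of one, under every alternative that gave a value, as did those of Cd36 between cDC1 and the other subsets. Msr1 and Timd4 gave no value when 10 counts were required in every library. Of the members' log2 fold changes over all alternatives, 469 kept direction and side of the threshold, 8 gained a call, 14 lost one and 16 changed sign, none of these 16 past the threshold. The cause was not tested. For Cd163 in pDC against cDC2, the sign turned with the replicate block (-0.097), DESeq2 (-0.0028), upper quartile factors (-0.0088) and at least 10 counts in every library (-0.0065), and ranged from -0.490 to 0.617 over the fits that left out libraries. Mfge8 in pDC against cDC1 was -0.00042 with upper quartile factors and ranged from -0.055 to 0.142 without single libraries, as it did from -0.120 to 0.036 in pDC against cDC2 and from -0.0079 to 0.190 in cDC2 against cDC1. Mertk in pDC against cDC2 ranged from -1.153 to 0.198. The number of genes called between cDC2 and cDC1, 3370, ranged from 2451 to 5356 with libraries left out, the highest without replicate 3. The members called in pDC against cDC2 numbered 3 to 5 with libraries left out, the highest without pDC replicate 3, where Axl and Cd36 were added, and 2 when 10 counts were required in every library, which left Msr1 untested. With the replicate block, 8094 genes were called between pDC and cDC1, 7663 between pDC and cDC2 and 4916 between the conventional subsets, and Axl in both pDC comparisons was the only member whose call changed. Depth limits Tyro3, and Msr1 in cDC1 and pDC and Mertk and Timd4 in pDC replicate 2 rest on 10 or fewer counts in a library.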
